A study of Mus musculus with 10 samples.

Results

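Elastic fibres give the aorta its recoil, and the 10 genes described here encode their core and the proteins that surround it. They were chosen by gene symbol, from what is known of their proteins, with earlier results of these data known. The genes are *Eln*, *Fbn1*, *Mfap4*, *Mfap5*, *Fbln1*, *Fbln2*, *Fbln5*, *Efemp1*, *Efemp2* and *Emilin1*. They are 10 of the 55453 gene symbols in the count table, and all 10 were among the 14614 genes with enough counts to be tested. RNA was sequenced from whole aortae of 10 male C57BL/6 mice, 5 young (14.5 weeks) and 5 old (92.5 weeks), with no other treatment and 1 poly(A) library per mouse, so that replicates are separate animals. Both ages were killed at the same time, and fat around the vessel was taken off before extraction. Libraries held 19640401 to 22886153 counts on genes. The tissue is a mixture of cell types, and in such bulk RNA fewer cells of a type and less RNA per cell cannot be told apart.

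Smooth muscle cells and fibroblasts secrete tropoelastin, which is laid onto a scaffold of fibrillin microfibrils and then crosslinked by lysyl oxidases. Fibulins, EMILIN-1 and the microfibril-associated proteins MFAP4 and MFAP5 help to guide or bind these parts. In arteries most elastic fibres are made early in life and last for years, so that mRNA in an adult vessel is not a measure of how much elastin the wall holds.

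Of the 10 genes, 7 passed the test between ages, 6 lower and 1 higher in old aortae. Here a gene is called when its adjusted p is below 0.05 in edgeR's quasi-likelihood test (Benjamini-Hochberg over all 14614 tested genes), and this rule called 11.5% of all tested genes, 4.99% as lower and 6.48% as higher in old aortae. *Mfap5*, *Eln*, *Mfap4*, *Fbn1*, *Fbln1* and *Fbln2* fell and *Efemp1* rose, while *Fbln5*, *Efemp2* and *Emilin1* did not pass. The median log2 fold change of the 10 genes was -0.36, beside 0.0034 over all tested genes. In 5 of the 10 genes the mice of both ages did not overlap, 4 with every old aorta lower and 1 with every old aorta higher. Of all tested genes, 9.92% had groups that did not overlap.

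**Figure D1:**
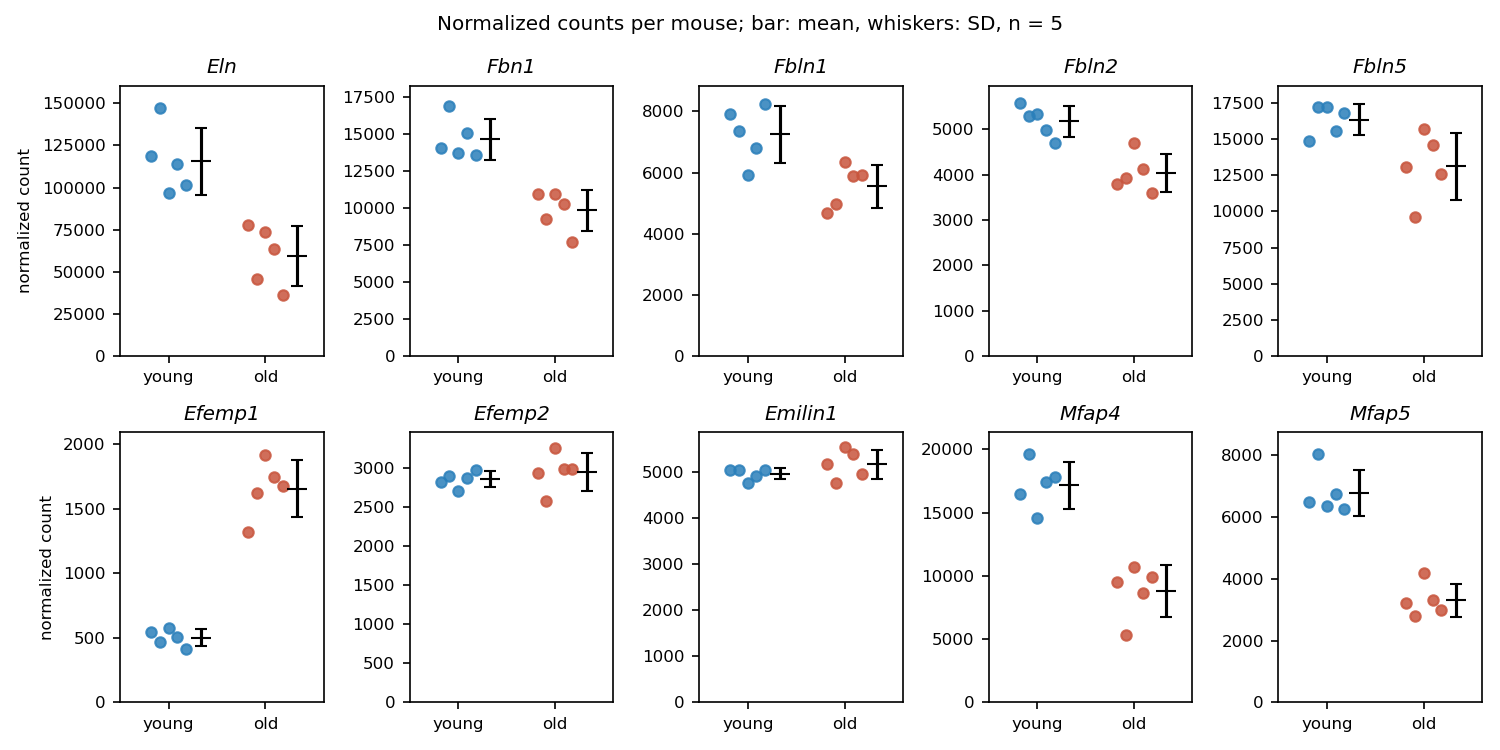
Normalized counts (linear axes from 0) of the 10 genes in each mouse, with blue points for 5 young and red points for 5 old aortae, and the mean with its SD beside each group. *Eln*, *Fbn1*, *Mfap4* and *Mfap5* have every old mouse below every young mouse, *Efemp1* has every old mouse above, and the other 5 genes overlap.

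Promoter sequence is given for *Efemp1*, which rose, and for *Fbn1* and *Fbln2*, which fell, as these are the called genes with 1 start site in the RefSeq table (build GRCm38.p6). Of the 10 genes, 7 have a window there, 11 windows in all, and *Eln*, *Mfap4* and *Mfap5* have none. Each window runs from upstream of the RefSeq start site into the transcript and is printed in the direction of transcription. The *Fbn1* and *Fbln2* windows lie wholly inside the gene positions given below, which come from another annotation (GENCODE). There *Fbn1* begins farther upstream, at 125507993 on the minus strand, and *Fbln2* at 91212455 on the plus strand. Capitals mark matches to the motifs searched, and the windows lie at chr11:28852955-28853254 on the plus strand (*Efemp1*), chr2:125506389-125506688 on the minus strand (*Fbn1*) and chr6:91212514-91212813 on the plus strand (*Fbln2*).
Efemp1: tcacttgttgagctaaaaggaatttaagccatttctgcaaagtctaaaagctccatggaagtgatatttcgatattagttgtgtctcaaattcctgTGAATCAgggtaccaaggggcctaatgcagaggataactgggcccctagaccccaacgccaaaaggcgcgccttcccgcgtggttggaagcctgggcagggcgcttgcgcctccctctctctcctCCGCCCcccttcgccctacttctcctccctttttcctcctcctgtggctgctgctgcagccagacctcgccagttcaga
Fbn1: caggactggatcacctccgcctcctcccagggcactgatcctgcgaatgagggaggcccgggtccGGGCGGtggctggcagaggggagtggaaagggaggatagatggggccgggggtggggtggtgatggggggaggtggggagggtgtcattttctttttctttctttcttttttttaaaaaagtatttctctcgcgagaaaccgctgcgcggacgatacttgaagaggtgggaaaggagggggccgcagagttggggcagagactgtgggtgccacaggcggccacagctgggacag
Fbln2: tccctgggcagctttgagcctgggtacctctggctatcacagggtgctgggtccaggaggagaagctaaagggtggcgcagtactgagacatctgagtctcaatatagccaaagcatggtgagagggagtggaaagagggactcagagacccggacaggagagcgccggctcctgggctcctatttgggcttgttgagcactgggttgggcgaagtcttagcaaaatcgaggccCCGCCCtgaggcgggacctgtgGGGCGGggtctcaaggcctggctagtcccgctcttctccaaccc
The motifs, searched on both strands, were the TATA box (TATAAA), the GC box bound by Sp factors (GGGCGG), the CCAAT box (CCAAT), the E-box (CACGTG), the AP-1 site (TGANTCA), the TEAD site (GGAATG) and the CArG box of serum response factor. The *Efemp1* window held a match to the AP-1 pattern, in which N is any base, 154 bases before the start (TGAATCA, with A at N). Whether AP-1 binds this stretch was not tested. The *Efemp1* window also held a GC box 29 bases before the start. An AP-1 match was present in 7.81% and a GC box in 35.6% of the 32817 windows in the table. The *Fbn1* window held a GC box 185 bases before the start, and the *Fbln2* window held one 16 bases before it and another just inside the transcript. No window of the 7 genes matched the TATA box, the TEAD site or the CArG box, which were found in 13.6%, 14.7% and 1.63% of all windows. GC content was 54.3% for *Efemp1* and 60.3% for both *Fbn1* and *Fbln2*, beside a median of 52.7% over all windows.

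*Eln* encodes tropoelastin, the soluble monomer of the elastic core, and lies on chromosome 5 (134702593 to 134747323, minus strand, GRCm38). Its normalized count, which is the read count divided by a size factor for the library, was 118489, 147149, 96991, 114067 and 101234 in young replicates 1 to 5. In old replicates 1 to 5 it was 77957, 45530.5, 73805.5, 63396 and 36052. Every old aorta was below every young aorta, and old replicates 2 and 5 were lowest. The mean went from 115586 ± 19740.5 to 59348 ± 18064.5 (SD, n = 5 each), or 51.3% of the young level, with a log2 fold change of -0.95 (SE 0.21, adjusted p = 0.0131 with edgeR). Without a filter on low counts the adjusted p was 0.0530, and over 20 alternative analyses it ranged from 1.18e-05 to 0.0530. The spread between mice was 17.1% of the mean in young and 30.4% in old aortae, the widest of the 10 genes in each group. By p, *Eln* was number 327 of the 729 genes called lower, and the SE of its fold change was the largest of the 10.

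*Eln* was among the genes with the most reads in this tissue. It took 0.446 to 0.659% of all gene counts in young and 0.171 to 0.358% in old aortae, and its place among all genes by count was 8 to 17 in young and 19 to 52 in old mice. The other 9 genes together took 0.327 to 0.371% in young and 0.209 to 0.297% in old aortae, without overlap between ages.

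*Fbn1* encodes fibrillin-1, the backbone of the microfibril and the gene mutated in Marfan syndrome, and lies on chromosome 2 (125300594 to 125507993, minus strand). Its normalized count was 14009, 16892, 13673, 15032.5 and 13539 in young and 10949, 9211, 10961, 10256 and 7715 in old replicates 1 to 5. All 5 old mice were below the lowest young mouse, with old replicate 5 lowest, as for *Eln*. The mean fell to 67.1% of the young level, with a log2 fold change of -0.57 (SE 0.10, adjusted p = 0.00296 with edgeR). *Fbn1* was called in all 20 alternative analyses. Of its exonic sequence, 20.1% is overlapped on the opposite strand by *Gm9913*, whose own mean normalized count was 10.7 in young and 7.57 in old aortae. The strand setting of the counting is not given in the sources used here, and without it reads of both genes could not be told apart.

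*Mfap5* encodes MFAP5 (also called MAGP-2), a small protein bound to fibrillin microfibrils, and lies on chromosome 6 (122505845 to 122529290, plus strand). It was measured at 6494, 8056, 6347, 6749 and 6246 normalized counts in young and at 3211, 2789, 4198, 3308 and 2997 in old replicates 1 to 5. The lowest young mouse lay well above the highest old mouse, and old replicate 3 was the highest of its group. *Mfap5* fell to 48.7% of the young mean, with a log2 fold change of -1.03 (SE 0.11, adjusted p = 9.75e-05 with edgeR), and stood at number 10 by p among the genes called lower.

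*Mfap4*, on chromosome 11 (61485431 to 61488900, plus strand), encodes a fibrinogen-domain protein that binds tropoelastin and fibrillin. Young replicates 1 to 5 had 16505, 19597, 14543, 17376 and 17798 normalized counts, and old replicates 1 to 5 had 9492, 5362, 10684, 8630.5 and 9925.5. The ages did not overlap, and old replicate 2 was lowest by a wide margin. The log2 fold change was -0.95 (SE 0.16, adjusted p = 0.00288 with edgeR), or 51.4% of the young mean. Old replicate 2 also had the largest share of mitochondrial counts, 11% beside 4.50 to 6.51% in the other 9 libraries. Without it the log2 fold change of *Mfap4* was -0.82 (SE 0.09, adjusted p = 2.12e-04 with edgeR).

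The long fibulins were lower in old aortae by less. *Fbln1*, on chromosome 15 (85205949 to 85286535, plus strand), encodes fibulin-1, a protein of the elastic core and of basement membranes. Its normalized count was 7924, 7358, 5905, 6815 and 8232 in young and 4669, 4956, 6334, 5884 and 5903 in old replicates 1 to 5. Old replicate 3 was above young replicate 3, and the other 4 old mice were below every young mouse. The log2 fold change was -0.38 (SE 0.10, adjusted p = 0.0306 with edgeR). This call did not hold in 6 of 20 alternatives, over which the adjusted p ranged from 0.00561 to 0.0848. It was lost without young replicate 2 (0.0617), young replicate 5 (0.0719), old replicate 1 (0.0628) or old replicate 2 (0.0639), all adjusted p-values of edgeR.

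*Fbln2*, on chromosome 6 (91212455 to 91272540, plus strand), encodes fibulin-2, which binds fibrillin-1 and tropoelastin. Young replicates 1 to 5 had 5571, 5286, 5335, 4973 and 4695 normalized counts, and old replicates 1 to 5 had 3794, 3923, 4698, 4120.5 and 3594. Old replicate 3 reached just above young replicate 5, and the other 4 old mice were below every young mouse. The log2 fold change was -0.35 (SE 0.08, adjusted p = 0.0103 with edgeR), and *Fbln2* was called in all 20 alternatives.

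Of the 3 short fibulins, 1 was called. *Fbln5*, on chromosome 12 (101746565 to 101819055, minus strand), encodes fibulin-5, which tethers tropoelastin to microfibrils and binds integrins. It had 14861, 17197, 17236, 15568 and 16831 normalized counts in young and 13102, 9632, 15708, 14601 and 12568 in old replicates 1 to 5. Old replicate 3 lay among the young mice, and the other 4 were below them. The log2 fold change was -0.31 (SE 0.11), and it did not pass with edgeR (adjusted p = 0.0880). DESeq2 gave an adjusted p of 0.0403 and edgeR without old replicate 3 one of 0.0375, within a range of 0.0279 to 0.172 over 20 alternatives.

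*Efemp1*, on chromosome 11 (28853204 to 28926743, plus strand), encodes fibulin-3 and was the only gene of the 10 called higher. Its normalized count was 547, 466, 574, 508 and 414 in young and 1319, 1623, 1916, 1744 and 1677 in old replicates 1 to 5. Even the lowest old aorta held more than the highest young aorta. The mean rose 3.30-fold, with a log2 fold change of 1.73 (SE 0.11, adjusted p = 1.87e-06 with edgeR), and *Efemp1* stood at number 5 by p among the 947 genes called higher. It was the least abundant of the 10 genes by count in both groups.

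*Efemp2*, on chromosome 19 (5473954 to 5482517, plus strand), encodes fibulin-4, which brings lysyl oxidase to tropoelastin and without which mice form no proper elastic fibres. Its normalized count was 2704 to 2972 in young and 2572 to 3254 in old aortae, and the log2 fold change was 0.05 (adjusted p = 0.634 with edgeR). *Emilin1*, on chromosome 5 (30913402 to 30921277, plus strand), encodes a glycoprotein at the border of elastin and microfibrils. Its normalized count was 4779 to 5064 in young and 4767 to 5550 in old aortae, and the log2 fold change was 0.07 (adjusted p = 0.493 with edgeR). Both ranges overlap. The 95% interval of the log2 fold change was taken from its SE and the degrees of freedom implied by the p-value of edgeR. It reached from -0.08 to 0.19 for *Efemp2* and from -0.05 to 0.19 for *Emilin1*.

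**Figure D2:**
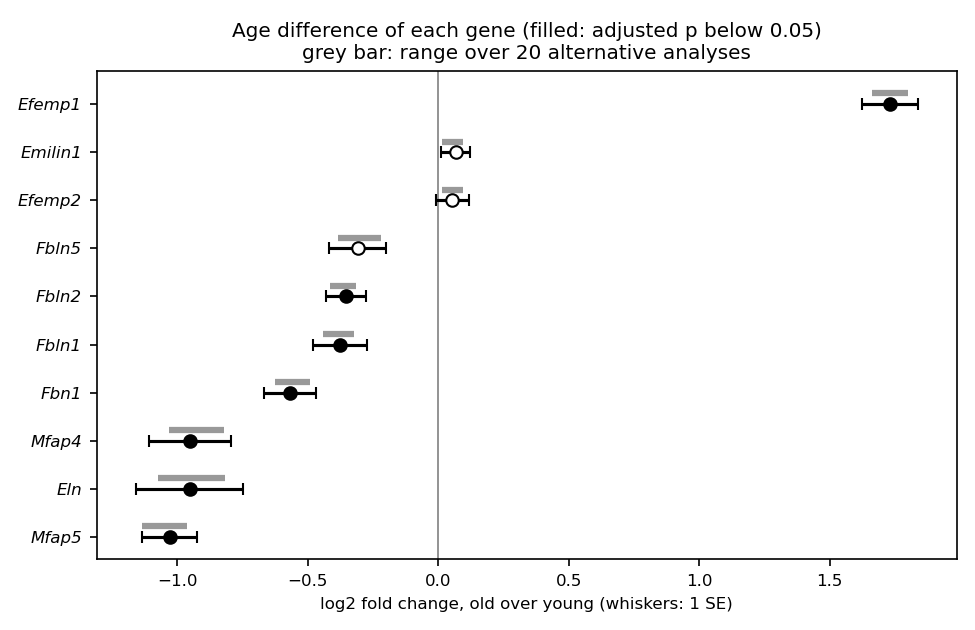
Log2 fold change of old over young aortae for the 10 genes, with whiskers of 1 SE from edgeR, filled points for an adjusted p below 0.05 and grey bars for the range over 20 alternative analyses. *Efemp1* stands at 1.73, *Emilin1* and *Efemp2* lie near 0, and the other 7 genes lie between -0.31 and -1.03, with no grey bar crossing 0.

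The old libraries differed among themselves in a shared way. Old replicate 3 was the highest old mouse for 9 of the 10 genes, *Eln* being the exception. Old replicate 2 was the lowest old mouse for 5 genes, namely *Fbln5*, *Efemp2*, *Emilin1*, *Mfap4* and *Mfap5*. The coefficient of variation was larger in old than in young aortae for 9 of the 10 genes. It ranged from 2.50 to 17.1% in young and from 6.15 to 30.4% in old mice. The share of all tested genes with a larger spread in old aortae was not computed. Nor was the share of all tested genes that were highest in old replicate 3 or lowest in old replicate 2. None of this is therefore read as particular to the 10 genes. Without old replicate 2, 6 of the 10 genes were called, *Fbln1* being the one lost, and the log2 fold change was -0.88 for *Eln*, -0.55 for *Fbn1*, -0.98 for *Mfap5* and 1.73 for *Efemp1*.

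Levels of different genes were compared as TPM (transcripts scaled to a constant sum per library), which divides by the length of all exons of the gene. *Eln* was highest in young aortae with 2286 ± 395 TPM and *Mfap4* next with 1430.2 ± 158 (mean ± SD, n = 5). *Fbln5* followed with 378 ± 22.1, then *Mfap5* with 302 ± 33.1, *Fbln1* with 266 ± 35.2 and *Fbn1* with 193 ± 18.6 TPM. *Emilin1* had 161 ± 4.98, *Fbln2* 130.0 ± 8.76, *Efemp2* 121 ± 4.73 and *Efemp1* 39.4 ± 4.97 TPM. In young aortae each gene differed from the next in this order by more than the larger SD of the pair.

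In old aortae *Eln* had 1162 ± 368, *Mfap4* 730.1 ± 186, *Fbln5* 302 ± 61.7 and *Fbln1* 201 ± 30.8 TPM. *Emilin1* (166 ± 15.6), *Mfap5* (146 ± 26.5), *Efemp1* (129 ± 18.9), *Fbn1* (128 ± 19.5) and *Efemp2* (123 ± 14.0 TPM) followed, each differing from the next by less than the larger SD of the pair, and *Fbln2* was last. Divided by the longest transcript in place of all exons, *Eln* had 3782 TPM in young and 1931 in old aortae, and *Emilin1* came before *Fbn1* in young aortae. On that scale *Efemp1* was last at both ages, with 31.1 TPM in young and 102 in old aortae, where *Fbn1* (103) and *Fbln2* (105) lay within the SD and *Efemp2* had 140.1 TPM.

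**Figure D3:**
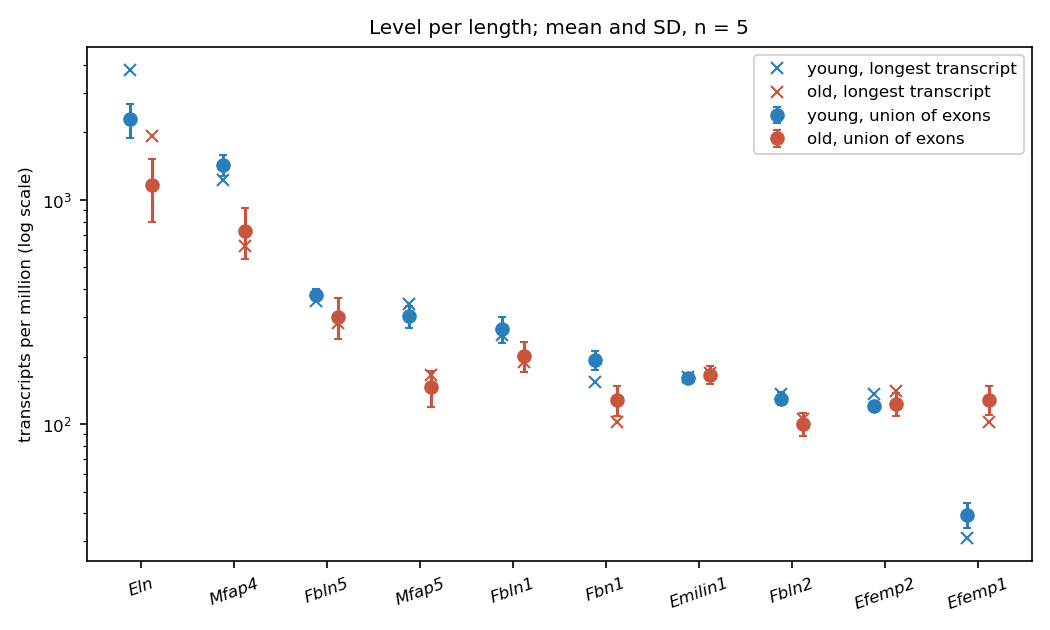
Level of the 10 genes in TPM (log axis), mean and SD over 5 young (blue) and 5 old (red) aortae from the length of all exons, with crosses for the length of the longest transcript. *Eln* is highest at both ages, and *Efemp1* goes from 39.4 to 129, or from 31.1 to 102 by the longest transcript, where it is lowest at both ages.

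Within the summed TPM of the 10 genes, *Eln* made up 42.9 ± 2.74% in young and 36.0 ± 6.39% in old aortae. *Efemp1* made up 0.754 ± 0.151% in young and 4.15 ± 0.856% in old aortae. The share of *Fbn1* was 3.65 ± 0.168% in young and 4.07 ± 0.489% in old aortae. These shares are descriptions and were not tested.

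For 7 gene pairs the ratio of their counts was taken within each library, where library scaling cancels, and compared with an exact two-sided permutation test over the mice, with p-values adjusted over the 7 ratios. The pairs were set with earlier results of these data known, and 3 of them share *Eln*. Fibulin-3 rose against both short fibulins it was set against, fibulin-5 and fibulin-4. There were 0.0306 reads of *Efemp1* per read of *Fbln5* in young and 0.127 in old aortae (geometric means), a log2 difference of 2.05 (SE 0.16, exact adjusted p = 0.0185). Against *Efemp2* the ratio went from 0.175 to 0.560, a log2 difference of 1.68 (SE 0.13, exact adjusted p = 0.0185). In both ratios the ages did not overlap, and the unadjusted exact p of 0.00794 is the smallest that 5 against 5 mice can give.

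Relative to *Eln*, the 3 genes set against it were higher in old aortae. *Emilin1* per *Eln* rose by a log2 difference of 1.06 (SE 0.21, exact adjusted p = 0.0185), without overlap. The log2 difference was 0.67 for *Fbln5* per *Eln* (SE 0.21) and 0.42 for *Fbn1* per *Eln* (SE 0.13), each with an exact adjusted p of 0.0222 and with overlap between ages. Within these libraries, *Eln* thus fell by more than *Fbn1*. The ratio of *Fbln2* to *Fbln1* differed by 0.02 (SE 0.13, exact adjusted p = 0.905) and that of *Mfap5* to *Mfap4* by -0.05 (SE 0.14, exact adjusted p = 0.806), both less than the spread between mice.

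**Figure D4:**
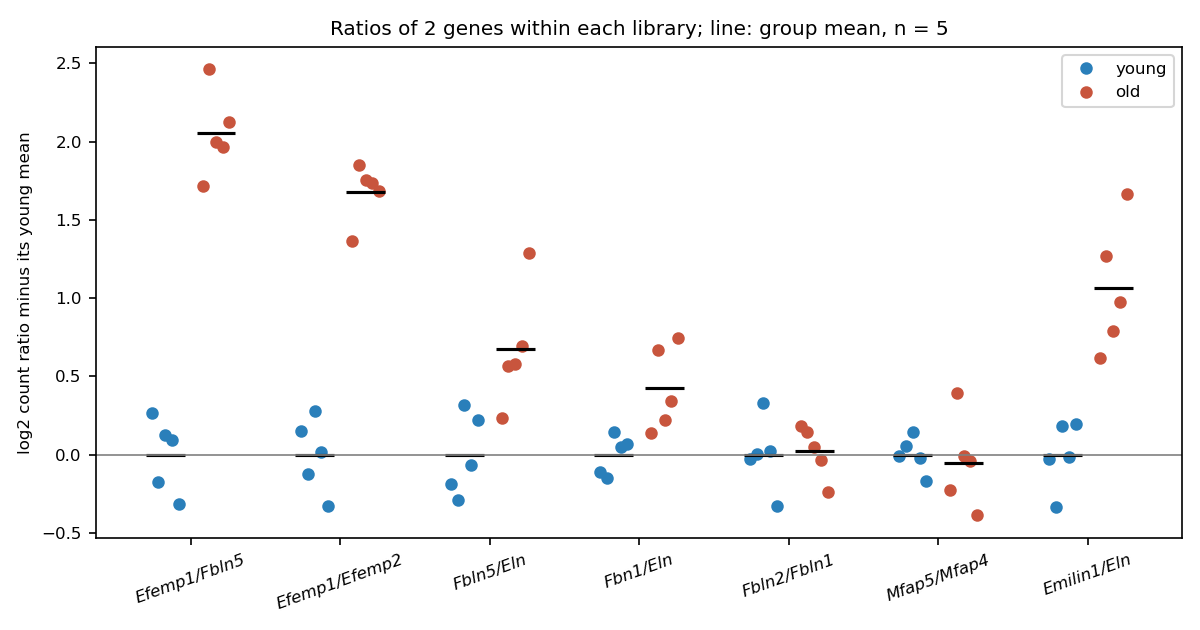
Log2 ratio of the counts of 2 genes in each library, less the mean of the young libraries, for 7 gene pairs in 5 young (blue) and 5 old (red) aortae, with a line at each group mean. The old mice lie above all young mice for *Efemp1* over *Fbln5*, *Efemp1* over *Efemp2* and *Emilin1* over *Eln*, and the last-named ratio is highest in old replicate 5.

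Other genes of the elastic fibre were taken from 8 lists of 53 genes, of which 48 were tested. Of these, 9 were called lower and 4 higher, which is 27.1% beside 11.5% of all tested genes, and their median log2 fold change was -0.10. Of the close relatives of the 10 genes (*Fbln7*, *Hmcn1*, *Hmcn2*, *Mfap2*, *Mfap3*, *Emilin2*, *Mmrn1* and *Mmrn2*), none of 8 was called by edgeR, though DESeq2 called *Fbln7* and *Mmrn2*. An unadjusted p below 0.05 was found for 3 of these 8, beside 26.7% of all tested genes. *Fbn2*, fibrillin-2 of the embryonic microfibril, and *Emilin3* had too few counts to be tested, with 13 reads of *Fbn2* over all 10 libraries.

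Of the 5 crosslinking enzymes, 2 were called, both lower. *Lox*, the main lysyl oxidase of arteries, went from 7095 ± 933 to 2827 ± 604 normalized counts without overlap, a log2 fold change of -1.32 (SE 0.14, adjusted p = 2.41e-04 with edgeR), beyond that of any of the 10 genes that fell. *Loxl2* had a log2 fold change of -0.41 (adjusted p = 0.0418 with edgeR), with overlap between ages. *Loxl1*, the form tied to fibulin-5, had one of -0.22, *Loxl3* one of 0.04 and *Loxl4* one of -0.24, and none of these passed. Of the latent TGF-beta binding proteins, *Ltbp4* was lower by a log2 fold change of -0.24 (adjusted p = 0.0320 with edgeR), and 3 of 4 were not called.

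Of 9 genes of the ADAMTS group that act on or bind fibrillin microfibrils, 4 were called. *Adamts17* (-1.67), *Adamtsl2* (-1.18) and *Adamtsl4* (-0.39) were lower and *Adamtsl5* (0.38) was higher on the log2 scale, with adjusted p-values of 0.00173, 0.0267, 0.00540 and 0.00140 from edgeR. *Adamts17* rested on 142 reads in all. Of 7 tested proteases that can cut elastin, *Ctss* (cathepsin S, log2 fold change 0.98, adjusted p = 0.00583 with edgeR) and *Mmp9* (0.73, adjusted p = 0.0465) were higher. *Mmp7* had no count in any library. Macrophage markers moved with them, as 3 of 6 were called higher (*Cd68*, *Adgre1* and *C1qa*) and their summed normalized count was 3781 to 5045 in young and 5074 to 9741 in old aortae. Their part in the result was not tested.

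None of the 3 elastin receptor complex genes (*Glb1*, *Neu1* and *Ctsa*) was called by edgeR or DESeq2, and none had an unadjusted p below 0.05. Of 8 tested integrin chains, *Itgb3*, which pairs with *Itgav* in a receptor for fibulin-5 and fibrillin-1, was lower by a log2 fold change of -0.42 (adjusted p = 0.00898 with edgeR), and *Itga4*, a chain common on leukocytes, by one of -0.71 (adjusted p = 0.00252). Of 4 proteoglycans, *Vcan* (versican) was higher with a log2 fold change of 0.42 (adjusted p = 0.0448 with edgeR), and *Hspg2* (perlecan) was lower with one of -0.34 (adjusted p = 0.0317).

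**Figure D5:**
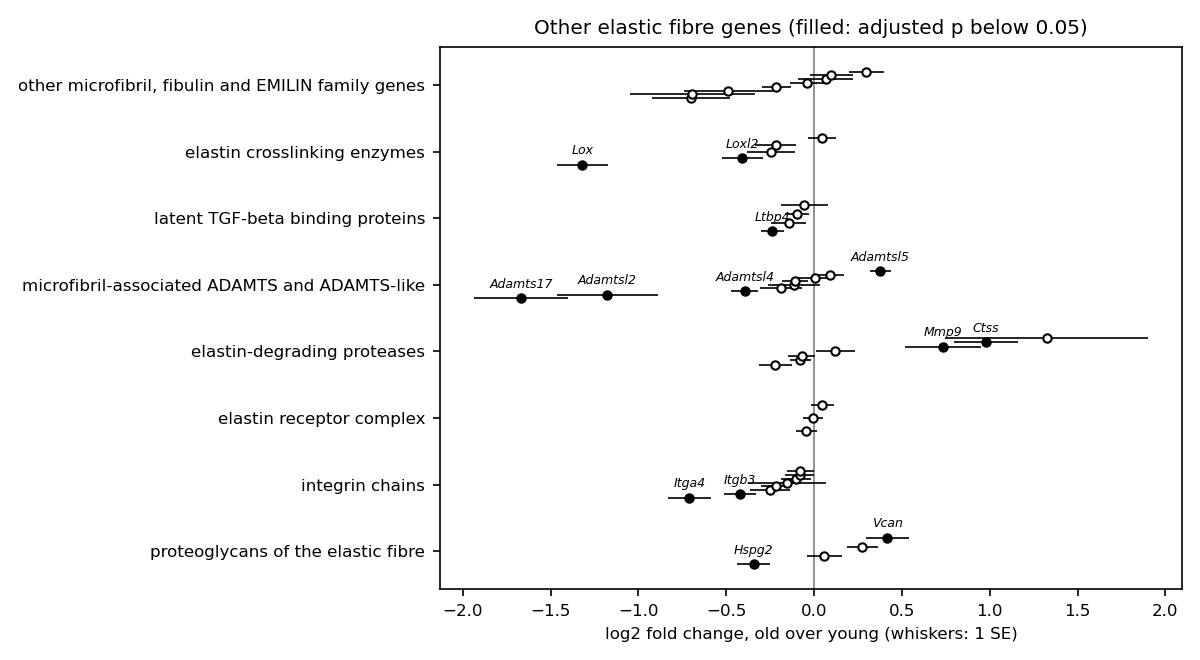
Log2 fold change of old over young aortae with whiskers of 1 SE for the 48 tested genes of 8 elastic fibre lists, 1 line of the vertical axis per list, with filled and named points for an adjusted p below 0.05 with edgeR. *Lox*, *Adamts17* and *Adamtsl2* lie farthest to the left among called genes, and *Ctss* farthest to the right.

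Markers of the cell types that make or border elastic fibres were measured beside these results. Of 8 smooth muscle markers, 1 (*Smtn*) was called higher and 0 lower, and their summed normalized count was 800307 to 949962 in young and 740029 to 905428 in old aortae. Of 8 fibroblast markers, *Lum* was higher and *Pi16* and *Col1a1* were lower, with sums of 92549 to 118112 in young and 62125 to 93384 in old aortae. Without *Col1a1*, itself a matrix gene, the sum of the other 7 fibroblast markers was 48168 to 56894 in young and 41142 to 54594 in old aortae. The sums of smooth muscle and fibroblast markers overlapped between ages, the latter with or without *Col1a1*. With *Col1a1* only the ends of the fibroblast ranges met, and the medians were 114633 in young and 83942 in old aortae. Without *Col1a1* the medians were 52072.5 and 50449. Of 6 endothelial markers, *Tek* was called lower by edgeR, 5 had an unadjusted p below 0.05, and the median log2 fold change was -0.66. DESeq2 called *Pecam1*, *Cdh5*, *Tie1* and *Tek* lower. The endothelial sums were 19345 to 33413 (median 21235) in young and 9725 to 22319 (median 12903) in old aortae, with overlap. The highest old sum was that of old replicate 2, which had the highest old value of each of the 6 markers. This is the library with the largest share of mitochondrial counts. The part of cell makeup in the changes of the 10 genes was not tested. None of 4 adipocyte markers was called by edgeR, though 3 had an unadjusted p below 0.05 and DESeq2 called *Plin1* (adjusted p = 0.0359). Their sums were 2080 to 7364 in young and 1164 to 2720 in old aortae, the highest old sum again from old replicate 2. Of 4 tested striated muscle markers, *Tnnt2* and *Ryr2* were called higher. *Acta1* (log2 fold change -1.02) and *Ckm* (-0.26) were not called, and the median of the list was -0.02. *Myh6* was not tested and went from 50.9 ± 69.1 to 3.87 ± 2.05 normalized counts. Of 3 chondrocyte markers *Acan* and *Comp* were higher. Of 3 tested lymphocyte markers *Cd3g* was higher, none of 4 Schwann cell markers was called by edgeR or DESeq2 (1 had an unadjusted p below 0.05), and the 3 mesothelial markers (*Msln*, *Upk3b* and *Wt1*) were near 0, with a summed normalized count of at most 23.9.

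Profiles most like 3 of the genes were sought among 11051 tested genes with a mean count of at least 100, the 10 genes themselves left out, by the root mean square difference of log2 CPM (counts scaled by library size) over the 10 mice after each gene's mean was removed. Nearest to *Eln* outside the 10 genes were *Col3a1*, the fibrillar collagen of type III (0.22), *Vtcn1* (0.25) and *Mrgprf* (0.26), beside a median of 0.61 over all candidates. Among the 10 genes the nearest to *Eln* was *Mfap5* (0.24), before *Fbn1* (0.28) and *Mfap4* (0.33). For *Fbn1*, which varied less, they were *Ctxn1*, *Elovl5* and *Col6a1*, a chain of the microfibrillar collagen VI (each 0.11, median 0.35), and *Fbln2* was nearest within the 10 (0.18). Among the nearest to *Efemp1* were *Cd209f* (0.21) and *Slc22a3* (0.22, median 0.90), and the other 9 genes lay at 0.85 to 1.42. The measure includes the difference between ages, which all of these genes share with the one they were matched to.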

How the data were processed

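The deposited values are raw read counts for 55453 gene symbols in 10 libraries (TruSeq Stranded mRNA), made by the authors with fastp 0.20.0, STAR 2.7.0f (GRCm38) and featureCounts of Subread 1.6.4. Strand setting and treatment of reads with several alignments are not given in the sources used here. The 10 genes, the lists and the gene pairs were chosen with earlier results of these data known. Genes passing filterByExpr were compared with the robust quasi-likelihood F test of edgeR 4.0.16 (R 4.3.3, TMM scaling, no covariates), with p-values adjusted by Benjamini-Hochberg over 14614 genes, a threshold of 0.05 and no fold limit. The standard error is the log2 fold change over the square root of F. Normalized counts are counts divided by size factors of DESeq2 1.42.0. Ratios used counts plus 0.5. Positions, exonic lengths and overlaps are from GENCODE annotation of GRCm38 one release before the authors' release. Between libraries of 1 group the counts differed more than counting error gives, with a chi-square per degree of freedom of 8.06 to 58.8 in 20 pairs.

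The genes named were the 10 genes, called genes of the elastic fibre lists (at most 5 per list, by p), the lysyl oxidase family, the 3 nearest profiles of *Eln*, *Fbn1* and *Efemp1* (of which 1 is not reported here), and cell type markers beside a result. Relatives of the 10 genes, receptor complex genes, *Dcn*, *Itga8* and untested genes were named after their values were seen. Alternatives were DESeq2, limma-voom (limma 3.58.1) with and without quality weights, other scaling and filters, GC and length offsets, a replicate block, a threshold of 0.01 and leaving out each mouse. The count tests were tested on simulated data. Depth was 19640401 to 22886153 counts per library, and its error and the spread between mice are both in each standard error.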

Additional observations from a re-analysis of the deposited data

Results flagged for a closer look

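*Mfap5* in young replicate 2 stood apart from the other young aortae, with a normalized count of 8056 beside 6246 to 6749 in the other 4 mice. The same mouse was the highest of the young group for 5 of the 10 genes, namely *Eln*, *Fbn1*, *Emilin1*, *Mfap4* and *Mfap5*. It lies on the far side from the old aortae, whose *Mfap5* counts were 2789 to 4198. Of 34 groups of values checked in this way, 1 held such a sample, and chance alone gives about 5% of groups.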

How the results depend on the processing

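The log2 fold changes of the 10 genes kept their direction in all 20 alternatives run at a threshold of 0.05. *Efemp1*, *Fbn1*, *Fbln2*, *Mfap4* and *Mfap5* stayed called in each, *Eln* in 19 and *Fbln1* in 14, and *Fbln5* was called in 3. Genes called in all numbered 1676, with 2304 by DESeq2, 2643 by limma-voom with quality weights and 658 at a threshold of 0.01, where 4 of the 10 genes were called. Leaving out 1 mouse gave 1132 to 2367 called genes and 6 to 8 of the 10.

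The labels do not say whether replicate numbers pair the mice. Deviations of mice with the same number correlated at -0.29 to 0.13, and 4 of 10 libraries were most like their own number, which does not settle the point. With the replicate block 1261 genes and 6 of the 10 were called, *Fbln1* being lost (adjusted p = 0.0848 with edgeR). For the ratios the block gave the same log2 differences, 2.05 (*Efemp1*/*Fbln5*), 1.68 (*Efemp1*/*Efemp2*), 0.67 (*Fbln5*/*Eln*), 0.42 (*Fbn1*/*Eln*) and 1.06 (*Emilin1*/*Eln*), and exact adjusted p = 0.0875, the least that 5 sign flips allow here. With medians in place of means these were 1.90, 1.72, 0.64, 0.30 and 0.99, each with an exact adjusted p of 0.0667. *Fbln2*/*Fbln1* changed sign without young replicate 5, old replicate 1 or old replicate 2 (range -0.0628 to 0.103) and *Mfap5*/*Mfap4* without old replicate 5 (range -0.166 to 0.0304), and neither passed a test. The causes were not tested.

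Levels per length depend on the transcript assumed, and *Eln* moved most. With 5 mice of 1 sex and strain per age, changes as small as those of *Efemp2* and *Emilin1* were not detectable.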
